A study of Mus musculus with 24 samples.

Results

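The loci of 10 transcription factors that hold epidermal identity, Trp63, Grhl1, Grhl2, Grhl3, Tfap2a, Tfap2c, Klf4, Klf5, Ovol1 and Zfp750, were followed as open chromatin while mouse epidermal stem cells (EpdSCs) were made to express SOX9. Each locus was taken as the gene body plus 50 kb on either side in the GRCm38 annotation, and a region was any stretch covered by an ATAC-seq peak of at least 1 of 12 deposited peak lists, overlapping peaks being merged. The 10 windows held 237 regions of 134312 in all on chromosomes 1 to 19 and X. By their centres 118 lay between genes, 107 in introns, 7 in untranslated exon sequence and 5 in coding exons. Annotated starts of protein-coding transcripts fell in 18 of the 237 regions. For 200 regions the nearest coding start was that of a member, and for 37 it was that of a neighbouring gene.

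In stratified epithelia TRP63 is the master regulator of the basal layer, where the short ΔN form from an internal start of the gene prevails. TFAP2A, TFAP2C and the Grainyhead-like factors GRHL1, GRHL2 and GRHL3 bind with it at epidermal enhancers. KLF4, OVOL1, ZFP750 and GRHL3 carry cells towards terminal differentiation and the skin barrier, while KLF5 is active in proliferating basal cells. SOX9 is the regulator of the alternative, hair follicle stem cell, fate.

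The skin groups were CD1 male mice of the genotype K14rtTA; TRE-myc-Sox9, in which doxycycline (DOX) lets a Krt14-driven activator switch on a MYC-tagged Sox9. Cells negative for CD31, CD45, CD117, CD140a and CD34 and high for CD49f and Ly6A were sorted from back skin at postnatal day 21 before DOX (D0), at day 28 after 1 week (W1), at day 35 after 2 weeks (W2) and at day 63 after 6 weeks (W6). At 12 weeks (W12) the sorted cells derived from newborn skin of this genotype transplanted onto immunocompromised hosts, so that time on DOX, age and grafting cannot be told apart. Age also rose with weeks of DOX at W1, W2 and W6, and skin of these ages without the transgene or DOX was not analysed here. The culture groups were keratinocytes taken from back skin of CD1 males, all on the K14rtTA background. Per the methods, primary cells for culture came from newborn pups, so skin and culture also differ in age. One group with TRE-myc-Sox9 received no DOX (noDOX). The other 6 received 1 µg/ml DOX, for 3 days where the labels or the peak names give a time, and carried TRE-myc-Sox9 (WT-SOX9), TRE-myc-Sox9noHMG without the DNA-binding domain (ΔHMG-SOX9), TRE-myc-Sox9noTA without the transactivation domain (ΔTA-SOX9), TRE-FLAG-AFOS, a dominant-negative FOS (AFOS), TRE-myc-Sox9 with TRE-FLAG-AFOS (SOX9+AFOS), or TRE-myc-Sox9 with TRE-ARID1a, a subunit of the SWI/SNF remodeller (SOX9+ARID1a). Per the methods the SOX9 variants, AFOS and ARID1a were brought in by lentivirus and 2 to 4 mice were pooled per skin replicate. AFOS and ARID1a went into K14rtTA cells or into cells that already held TRE-myc-Sox9. WT-SOX9 may thus differ from SOX9+AFOS and SOX9+ARID1a also in how SOX9 was brought in.

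Each group had 2 replicates, but reads of both were pooled before peak calling. Each group is therefore a single list, without replicate error or test. Differences are given as sizes, beside the share of all regions that passed the same rule. A peak's score is the normalised value the authors deposited, whose sum was between 925672 and 995521 in each list, and 3 was the lowest score kept. "No peak" therefore means no peak that reached this score, not closed chromatin. Fewer open cells and less opening per cell cannot be told apart in such bulk lists.

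The results turn on regions such as these 8, whose sequences are given first. Those of regions are the central 200 bases, forward strand, of GRCm38.p6 from RefSeq. They comprise the 2 strongest gained and the 2 strongest lost regions, a region without a peak after SOX9 in culture, the strongest region opened by SOX9 in culture, the region with the highest score in any skin list among those that overlap no exon, and, chosen after its values were seen, the 200 bases before the internal Trp63 start. Capitals mark letters that match a consensus searched on both strands; each motif was scanned on its own, overlaps between motifs allowed. The letters were ACAATGG or ACAATAG for SOX factors, TGACTCA for AP1, AGATAA for GATA factors, TGTGGT for RUNX factors, AACCGGTT for Grainyhead-like factors (GRHL), GCCNNNGGC for AP-2 factors (TFAP2), GGGNGTGG for KLF factors, and the p63 response element.
Tfap2a, gained by W2, chr13:40676766-40676965: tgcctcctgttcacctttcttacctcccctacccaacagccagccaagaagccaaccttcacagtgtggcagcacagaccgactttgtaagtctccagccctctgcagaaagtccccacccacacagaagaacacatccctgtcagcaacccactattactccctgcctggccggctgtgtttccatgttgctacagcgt
Klf4, gained by W2, chr4:55500230-55500429: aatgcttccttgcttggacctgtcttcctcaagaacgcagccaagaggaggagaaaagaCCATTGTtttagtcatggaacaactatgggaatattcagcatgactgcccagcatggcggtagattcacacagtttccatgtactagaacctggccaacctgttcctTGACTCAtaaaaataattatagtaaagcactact
Grhl3, lost by W2, chr4:135590954-135591153: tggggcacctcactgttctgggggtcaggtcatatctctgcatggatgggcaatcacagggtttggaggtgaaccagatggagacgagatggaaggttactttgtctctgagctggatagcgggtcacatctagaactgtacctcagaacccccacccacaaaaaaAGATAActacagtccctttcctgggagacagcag
Klf4, lost by W2, chr4:55482272-55482471: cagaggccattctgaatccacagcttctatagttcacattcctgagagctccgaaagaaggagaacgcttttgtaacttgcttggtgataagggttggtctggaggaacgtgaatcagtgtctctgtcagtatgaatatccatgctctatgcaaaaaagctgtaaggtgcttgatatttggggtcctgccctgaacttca
Ovol1, no peak after WT-SOX9 or ΔHMG-SOX9, chr19:5539918-5540117: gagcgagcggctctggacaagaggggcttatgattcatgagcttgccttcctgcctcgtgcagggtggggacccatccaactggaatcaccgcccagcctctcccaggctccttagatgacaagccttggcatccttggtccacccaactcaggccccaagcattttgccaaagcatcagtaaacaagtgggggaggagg
Tfap2a, opened by WT-SOX9, chr13:40694578-40694777: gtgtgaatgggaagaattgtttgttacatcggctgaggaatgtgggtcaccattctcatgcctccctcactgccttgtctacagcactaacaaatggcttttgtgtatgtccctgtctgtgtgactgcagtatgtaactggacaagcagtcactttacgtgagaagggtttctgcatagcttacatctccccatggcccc
Grhl3, highest skin score, chr4:135623833-135624032: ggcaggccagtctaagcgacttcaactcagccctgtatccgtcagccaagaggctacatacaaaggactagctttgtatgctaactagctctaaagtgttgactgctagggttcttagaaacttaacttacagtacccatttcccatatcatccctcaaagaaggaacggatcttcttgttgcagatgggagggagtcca
Trp63, before the internal start, chr16:25801716-25801915: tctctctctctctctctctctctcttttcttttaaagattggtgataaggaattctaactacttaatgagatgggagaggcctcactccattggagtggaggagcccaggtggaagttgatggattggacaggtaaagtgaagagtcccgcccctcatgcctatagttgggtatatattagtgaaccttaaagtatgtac
The gained Klf4 sequence held a SOX match at bases 60 to 66 and an AP1 match at bases 167 to 173. The lost Grhl3 sequence held a GATA match at bases 167 to 172. The other 6 sequences held none of these letters.

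The skin lists carried basal keratinocyte marks. All 5 basal markers (Krt5, Krt14, Itga6, Itgb4 and Col17a1) had a peak over an annotated start in each of the 12 lists, whereas the immune markers Ptprc, Cd3e and Cd207 and the endothelial markers Pecam1 and Cdh5 had none in any list. Of the suprabasal markers, Krt10 and Ivl had a start peak in each list and Krt1 and Lor in none. Krt10 scored 3.495 in D0, 10.9 in W1, 5.56 in W2, 3.23 in W6 and 6.82 in W12. Ivl, an envelope protein of differentiated cells, scored 6.5 in D0, 5.80 in W1, 26.4 in W2, 19.4 in W6 and 12.1 in W12, and 18.2 in noDOX and 7.87 in WT-SOX9. What part more or less differentiated cells have in the member values was not tested. Of the other markers, Pmel (melanocyte) had a start peak in all 12 lists and Pdgfra (fibroblast) in 10, while Kit, Dct and Col1a1 had none. Lhx2, a hair follicle regulator, had one at D0 (21.1), W1 (25.0), W6 (12.9) and W12 (15.3) but not at W2 or in culture, and Cd34 had one at W6 (5.90) and W12 (3.03). What part cells of the follicle have in the member values was not tested. A peak inside exon 3 of Sox9 was in the D0 list (13.5) as well as at W2 (15.1), W6 (9.22) and W12 (8.84) and was missing at W1, so it is no check of the labels of the skin lists. In culture a single peak ran over all 3 Sox9 exons in WT-SOX9 and ΔHMG-SOX9 and in no other list. Peaks inside Arid1a exons past the first numbered 4 in SOX9+ARID1a, with a highest score of 21.9, but also 4 in AFOS (8.69) and 5 in SOX9+AFOS (7.86).

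The shares of regions lost from the 10 windows lay near those of all regions. At D0 129 regions had a peak. Of these 12 had none at W1, and 24, 27 and 14 had none at W2, W6 and W12, or 9.3% (95% Wilson interval 5.4 to 15.6%), 18.6% (12.8 to 26.2%), 20.9% (14.8 to 28.7%) and 10.9% (6.58 to 17.4%). Over all D0 regions the shares were 12.7%, 19.6%, 19% and 16.3%. Each of these backgrounds lay within the interval of the members, which covers counting only and treats neighbouring regions as independent. The skin lists were cut at different significance, the lowest deposited −log10 q-value being 14.5 at D0 and 4.21 at W2. With 14.5 required of all 5 skin lists the members' shares were 16.3%, 43.4%, 37.2% and 22.5%, beside 20.7%, 42.7%, 36.4% and 23.1% of all D0 regions. The regions lost by W2 were among the weaker ones. The 24 absent at W2 had a median D0 score of 6.14 and a highest of 10.3, against a median of 11.8 for the 105 that stayed. Over all regions the medians were 4.83 for those lost and 13.3 for those kept, and the highest score among those lost was 99.6. Regions with a coding start kept their peaks in skin, 0 of 16 lacking one at W1, W2, W6 or W12, against 2.83%, 2.83%, 2.18% and 3.04% of all start regions.

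The loci differed in how many regions they held and lost. Grhl3 had 7 of the 24 regions without a peak at W2 and 10 of the 27 at W6, from 21 at D0. Klf4 lost a like share, 3 of 8 at W2 and 4 of 8 at W6, whereas Zfp750 had 0 of 5 at either time and Ovol1 had 1 of 13 at W2. Among the 65 skin regions that had no peak at D0, 22 had one at W1, and 23, 29 and 36 at W2, W6 and W12 (33.8%, 35.4%, 44.6% and 55.4%), beside 20.4%, 38%, 67.1% and 54.5% of all such regions. The shares over all regions lay below the members' interval at W1 (23.5 to 46%), above it at W6 (33.2 to 56.7%) and within it at W2 (24.9 to 47.5%) and W12 (43.3 to 66.8%). Of the 23 seen at W2, Trp63 had 11 of its 17 such regions, while Grhl3 had 0 of 5, Grhl1 0 of 4 and Ovol1 0 of 2. Weak peaks could be kept at W2 alone, since the lowest −log10 q-value was 4.21 at W2 and 14.5 at D0. In all, 9 regions were lost by W2 and stayed without a peak at W6 and W12 (6.98% of the D0 regions, all regions 9.9%), and 9 had no peak at D0 or W1 and then had one at W2, W6 and W12 (13.8% of those without a D0 peak, all regions 18.7%). Peaks at all 5 times were found in 88 of 194 skin regions, or 45.4%, against 38.2% of all.

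**Figure D1:**
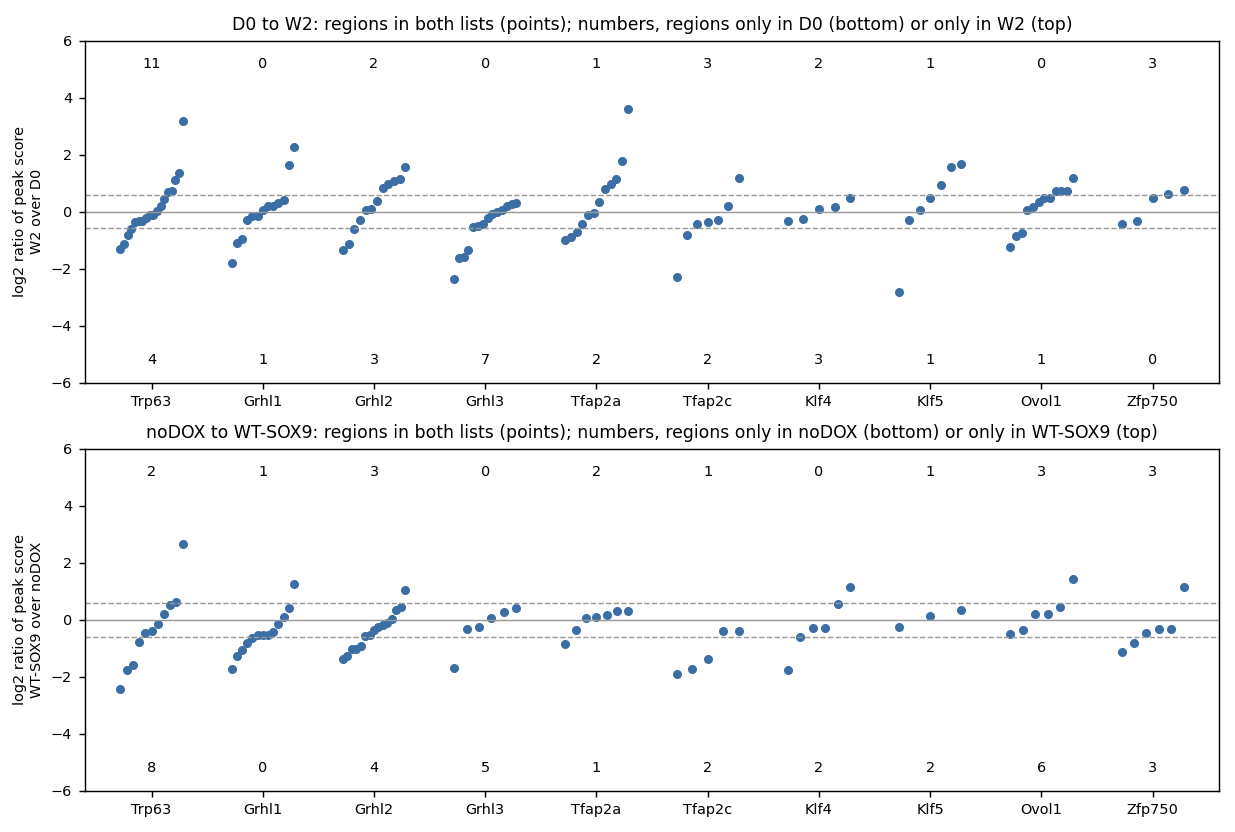
Each point is a region of a window (x axis, by locus) with a peak in both lists, at the log2 ratio of its peak score (y axis), for W2 over D0 (top) and WT-SOX9 over noDOX (bottom), and dashed lines mark 1.5-fold. The numbers count regions only in the first list (bottom of each panel) or only in the second (top): Grhl3 had 7 regions only at D0 and 0 only at W2, and Trp63 had 4 and 11. The W2 list was cut at a lower significance than the D0 list.

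Among regions with a peak in both lists, scores differed in both directions. From D0 to W2, 23 of 105 were at least 1.5-fold lower and 27 at least 1.5-fold higher (21.9% and 25.7%, all regions 19% and 20.9%). From D0 to W6 the counts were 27 and 21 of 102 (26.5% and 20.6%, all regions 23.9% and 21.2%). The median log2 ratio was 0.04 at W2 and -0.13 at W6 in the windows, and -0.02 and -0.07 over all regions. At W1 it was 0.18 in the windows and 0.07 over all regions. For regions with a coding start the W1 median was 0.50 in the windows and 0.28 over all regions, so higher W1 scores were also seen genome-wide.

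Summed over a window, the score was at least 1.5-fold lower at W2 than at D0 at Grhl3 alone, and at no window was it 1.5-fold higher. Tfap2a, at 1.49 times D0, was just short of that. It passed with a score of at least 5 (log2 ratio 0.76) and with 100 kb flanks (0.64), where Klf4 also passed (0.64). Such a sum falls with each peak that drops below the lowest score kept as well as with the scores. At Grhl3 the peaks covered 12.8 kb with a mean score of 12.1 in D0 and 6.8 kb with a mean of 11.4 in W2, and over the 14 regions with a peak in both lists the W2 sum was 0.725 of D0, short of 1.5-fold. Of 16632 protein-coding genes with a summed D0 score of at least 20 in the same kind of window, 5.6% were lower and 7.57% higher by that rule. Windows of neighbouring genes overlap, so these genes are not independent.

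**Figure D2:**
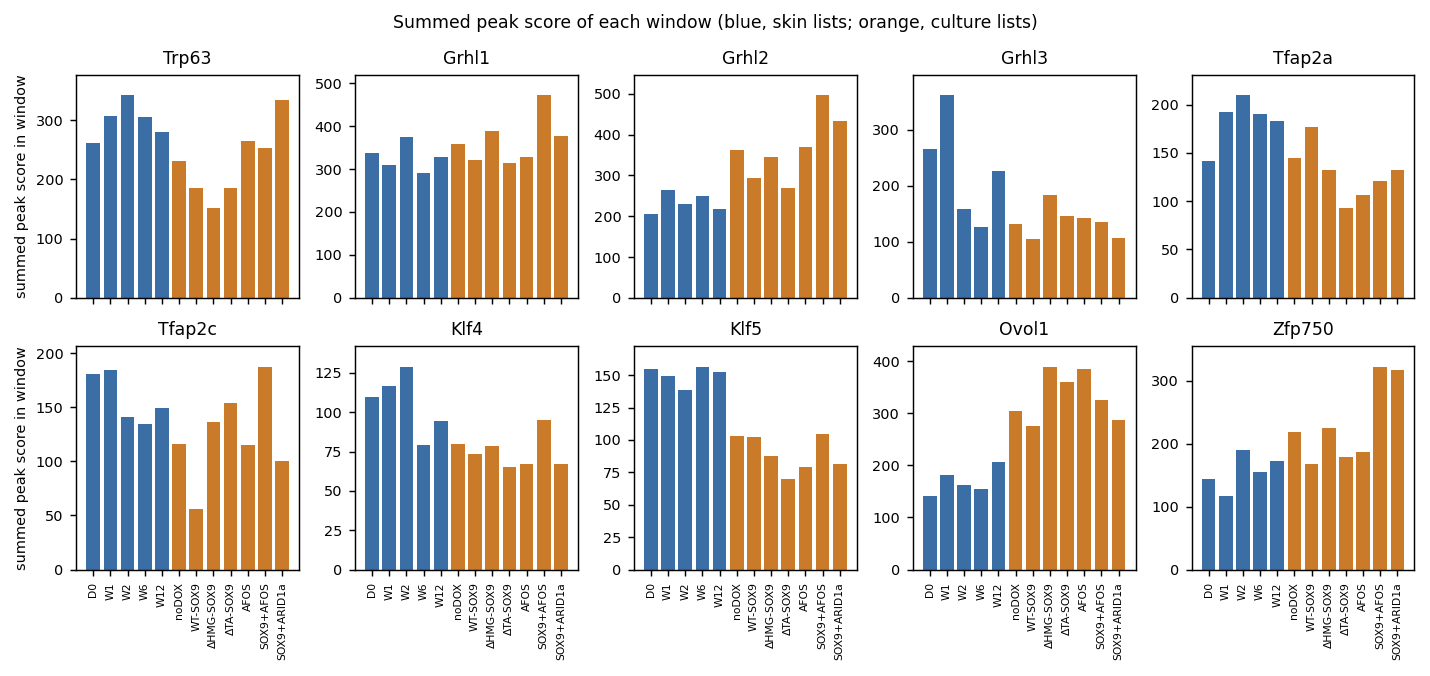
Bars give the summed peak score (y axis, in score units, each panel on its own scale from 0) of each window in the 5 skin lists (blue) and the 7 culture lists (orange). The Grhl3 window went from 266.3 at D0 to 159.0 at W2 and 126.0 at W6, and the Tfap2c window from 115.7 in noDOX to 55.6 in WT-SOX9.

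Trp63 (chr16:25683763-25892102, plus strand) had the most regions, 41, with no other coding gene in its window. No peak of any list lay over the upstream starts, from which the long TA forms are made. The internal ΔN start had a peak in all 12 (chr16:25801588-25802155). Its score was 20.3 in D0, 22.9 in W1, 11.6 in W2, 10.2 in W6 and 16.5 in W12, and in culture 13.8 in noDOX, 4.62 in WT-SOX9, 10.5 in ΔHMG-SOX9, 9.62 in ΔTA-SOX9, 15.5 in AFOS, 19.9 in SOX9+AFOS and 17.8 in SOX9+ARID1a. W2 and W6 were the lowest skin values, at 0.573 and 0.502 of D0, and WT-SOX9 was the lowest culture value at 0.335 of noDOX, with AFOS, SOX9+AFOS and SOX9+ARID1a above noDOX.

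The strongest Trp63 regions took different courses. The region 16.8 kb upstream of the gene start (chr16:25666545-25667326) scored 5.74 in D0, 51.8 in W2, 43.8 in W6 and 22.8 in W12 (no peak in W1). It was thus weak or missing before W2 and among the highest of the window from then on. In culture it scored 3.55 in noDOX, 5.44 in WT-SOX9, 7.28 in AFOS, 5.86 in SOX9+AFOS and 18.97 in SOX9+ARID1a (no peak in ΔHMG-SOX9 and ΔTA-SOX9), with SOX9+ARID1a the highest. An intronic region in the large intron before the ΔN start (chr16:25779859-25780640) was open throughout, with 43.7 in D0, 46.1 in W1, 37.7 in W2, 25.9 in W6 and 32.4 in W12, and with 47.7 in noDOX, 36.5 in WT-SOX9, 30.5 in ΔHMG-SOX9, 22.2 in ΔTA-SOX9, 52.7 in AFOS, 87.98 in SOX9+AFOS and 65.8 in SOX9+ARID1a. Beyond the 3′ end, 250.7 kb downstream of the upstream start, a region with an AP1 and a GATA match in its central 200 bases (chr16:25934063-25934916) scored 37.3 in D0, 47.3 in W1, 34.5 in W2, 23.1 in W6 and 26.8 in W12. In culture it gave 14.5 in noDOX, 4.28 in WT-SOX9, 10.3 in ΔHMG-SOX9, 6.93 in ΔTA-SOX9, 12.7 in AFOS and 8.46 in SOX9+ARID1a (no peak in SOX9+AFOS), so that all 6 DOX arms were below noDOX and the peak was missing in SOX9+AFOS.

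The Trp63 window held 5 of the 9 regions that appeared at W2 and stayed. The intronic one at chr16:25759597-25759993, whose centre held a SOX and a RUNX match, scored 3.97, 8.06 and 5.74 at W2, W6 and W12. A second intronic one at chr16:25869179-25869574 scored 6.22, 4.605 and 3.39. One centred on the 3′ untranslated region (chr16:25890448-25890971) scored 3.97, 6.13 and 4.41, and one past the gene end (chr16:25910353-25910756) 4.47, 5.995 and 7.46. None of these 4 had a peak in any culture list, and all stayed at low scores. The fifth (chr16:25900228-25901193) scored 5.95, 10.9 and 6.98 and was also open in culture, with 5.29 in noDOX, 33.2 in WT-SOX9, 7.12 in ΔTA-SOX9, 8.33 in AFOS, 3.18 in SOX9+AFOS and 12.2 in SOX9+ARID1a (no peak in ΔHMG-SOX9). Its WT-SOX9 score was 6.27 times that of noDOX, the largest ratio of any member region in that comparison, and ΔHMG-SOX9 had no peak there. The W2 list kept peaks down to a −log10 q-value of 4.21, against 14.5 at D0. With 14.5 required of all skin lists, 2 regions of the 10 windows were gained by W2 and kept. That count was not split by locus.

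The single Trp63 region lost by W2 lay close by (chr16:25898829-25899597), with 4.27 at D0 and 7.25 at W1. In culture it had 4.96 in noDOX, 5.41 in ΔTA-SOX9, 3.66 in AFOS, 6.56 in SOX9+AFOS and 4.87 in SOX9+ARID1a (no peak in WT-SOX9 and ΔHMG-SOX9). A further intronic region, chosen after its values were seen, had no peak at D0 (chr16:25842864-25844925) and scored 9.03, 32.6, 32.3 and 14.8 from W1 on. It was open in all 7 culture lists, between 11.7 in ΔTA-SOX9 and 31.5 in SOX9+AFOS. Cells in culture without DOX (17.1) thus had a peak where the D0 list had none that reached the lowest score kept.

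In culture Trp63 had the highest count of regions without a peak in WT-SOX9, but Ovol1 (6 of 12) and Grhl3 (5 of 11) had larger shares, and over all noDOX regions the share was 27.9%. Of 19 noDOX regions in its window 8 had no peak in WT-SOX9, 6 in ΔHMG-SOX9, 4 in ΔTA-SOX9, 1 in AFOS, 7 in SOX9+AFOS and 0 in SOX9+ARID1a. The shares over all noDOX regions were 18.4%, 19.2%, 17.3%, 34.8% and 20.5% for the last 5 of these arms. One intronic region with an AP1 match (chr16:25753480-25754021) had 5.35 in noDOX, 4.27 in ΔTA-SOX9, 10.6 in AFOS and 5.22 in SOX9+ARID1a (no peak in WT-SOX9, ΔHMG-SOX9 and SOX9+AFOS). In contrast the intronic region chr16:25860599-25861699 was opened by WT-SOX9, with 6.25 in WT-SOX9, 21.3 in SOX9+AFOS and 11.5 in SOX9+ARID1a (no peak in noDOX, ΔHMG-SOX9, ΔTA-SOX9 and AFOS), and in skin it had 6.85 in D0, 7.73 in W1 and 8.44 in W6 (no peak in W2 and W12). The summed Trp63 score was 261.2 in D0, 307.4 in W1, 342.5 in W2, 305.4 in W6 and 280.0 in W12, and 230.7 in noDOX, 185.6 in WT-SOX9, 152.0 in ΔHMG-SOX9, 186.1 in ΔTA-SOX9, 264.1 in AFOS, 252.3 in SOX9+AFOS and 333.7 in SOX9+ARID1a. Skin was highest at W2, and SOX9+ARID1a was the highest culture list.

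**Figure D3:**
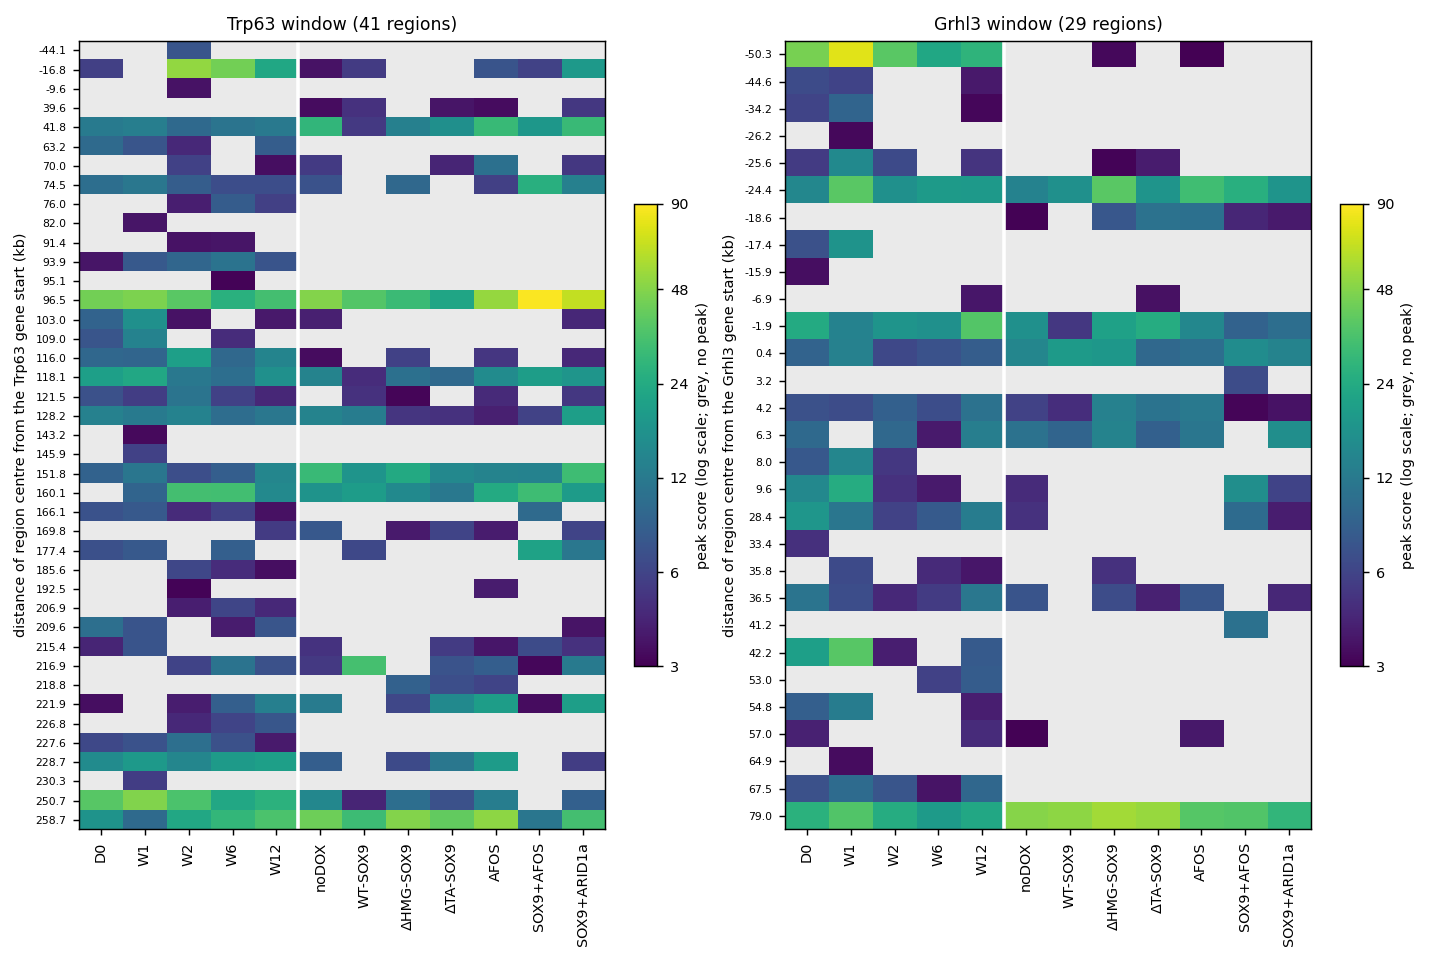
Each row is a region, ordered by the distance of its centre from the gene start in kb (y axis; negative, upstream), and each column a peak list (x axis; a white line parts skin from culture); colour gives the peak score on a log scale and grey means no peak. In the Trp63 window (left) the region 16.8 kb upstream brightens at W2, and in the Grhl3 window (right) many rows turn grey at W2 and W6 and return in part at W12.

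Tfap2a (chr13:40715302-40738376, minus strand), which encodes an AP-2 factor, had 18 regions and no other coding gene in its window. Peaks lay over 2 groups of starts. That over the outermost start (chr13:40737739-40738571) scored 4.58 in D0, 7.17 in W1, 10.3 in W2, 5.91 in W6 and 6.51 in W12. Culture scores were 20.4 in noDOX, 23.1 in WT-SOX9, 28.7 in ΔHMG-SOX9, 13.97 in ΔTA-SOX9, 10.2 in AFOS, 8.47 in SOX9+AFOS and 8.83 in SOX9+ARID1a, with AFOS, SOX9+AFOS and SOX9+ARID1a the lowest of the culture lists. That over the internal starts (chr13:40733649-40734257) varied less, with 17.5 in D0, 24.4 in W1, 16.3 in W2, 16.5 in W6 and 14.4 in W12. In culture the scores were 18.4 in noDOX, 23.03 in WT-SOX9, 21.4 in ΔHMG-SOX9, 15.5 in ΔTA-SOX9, 19.5 in AFOS, 12.4 in SOX9+AFOS and 18.4 in SOX9+ARID1a.

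Far downstream of Tfap2a, 2 regions scored high from W2 on. At chr13:40676595-40677136, 61.5 kb downstream of the gene start, the score was 29.4 in W2, 24.4 in W6 and 14.9 in W12 (no peak in D0 and W1) and no culture list had a peak. At chr13:40683624-40684347, with an AP1 and a RUNX match in its centre, it was 3.79 in D0, 46.5 in W2, 37.1 in W6 and 40.98 in W12 (no peak in W1). The W2 value was 12.3 times that of D0, the largest ratio of any member region in that comparison. Unlike its neighbour this region was open in culture without DOX, with 22.95 in noDOX, 24.7 in WT-SOX9, 16.8 in ΔHMG-SOX9, 9.54 in ΔTA-SOX9, 24.2 in AFOS, 9.37 in SOX9+AFOS and 27.4 in SOX9+ARID1a.

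Upstream of the gene a region open in all 12 lists (chr13:40754611-40755359) scored 27.2 in D0, 24.4 in W1, 13.8 in W2, 22.9 in W6 and 27.97 in W12. The culture lists gave 19.1 in noDOX, 20.03 in WT-SOX9, 16.3 in ΔHMG-SOX9, 16.2 in ΔTA-SOX9, 15.1 in AFOS, 24.5 in SOX9+AFOS and 29.6 in SOX9+ARID1a. The Tfap2a region lost by W2 (chr13:40732843-40733242) was weak, at 3.65 at D0 and 3.16 at W1, and SOX9+AFOS (5.03) and SOX9+ARID1a (3.11) had a peak there. The strongest region opened by WT-SOX9 in all 10 windows was chr13:40694384-40694971, with 23.2 in WT-SOX9, 4.94 in SOX9+AFOS and 4.24 in SOX9+ARID1a (no peak in noDOX, ΔHMG-SOX9, ΔTA-SOX9 and AFOS) and no peak in any skin list. ΔHMG-SOX9 and ΔTA-SOX9 thus lacked it, and the other SOX9 arms had it at low scores. The summed score was 141.4 in D0, 192.0 in W1, 210.1 in W2, 189.9 in W6 and 183.2 in W12, and 144.3 in noDOX, 176.4 in WT-SOX9, 132.5 in ΔHMG-SOX9, 92.6 in ΔTA-SOX9, 105.9 in AFOS, 121.1 in SOX9+AFOS and 132.7 in SOX9+ARID1a.

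Tfap2c (chr2:172549593-172558622, plus strand), the paralogue, had 21 regions. Its start region (chr2:172548931-172551230) scored 22.5 in D0, 28.1 in W1, 25.9 in W2, 22.98 in W6 and 23.3 in W12. Among the culture lists it had 27.97 in noDOX, 21.2 in WT-SOX9, 35.9 in ΔHMG-SOX9, 32.8 in ΔTA-SOX9, 25.8 in AFOS, 50.3 in SOX9+AFOS and 31.6 in SOX9+ARID1a. Skin scores spanned a narrow range, and SOX9+AFOS was the highest of all. Just past the gene end, chr2:172559907-172560499 scored 28.6 in D0, 24.2 in W1, 23.4 in W2, 20.04 in W6 and 19.8 in W12 and had no peak in any culture list, and at chr2:172602580-172604013 the scores were 20.8 in D0, 28 in W1, 15.5 in W2, 21.6 in W6 and 22.6 in W12. Culture scores were 37.5 in noDOX, 14.5 in WT-SOX9, 20.3 in ΔHMG-SOX9, 19.2 in ΔTA-SOX9, 20.6 in AFOS, 19.1 in SOX9+AFOS and 25.3 in SOX9+ARID1a. noDOX was the highest culture list at the latter. A region chosen after its values were seen, chr2:172565193-172565667, had 27.8 in D0, 21.8 in W1, 5.68 in W2 and 5.85 in W12 (no peak in W6), and in culture a peak in ΔTA-SOX9 alone (6.37). Its W2 score was 0.204 of D0.

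The region lost by W2 at Tfap2c (chr2:172542724-172543356) had 3.29 at D0 and 3.38 at W1 and no peak elsewhere. At the window's edge chr2:172500738-172501289, nearer to Fam209, had 6.97 in D0, 3.91 in W1 and 6.04 in W12 (no peak in W2 and W6). In culture the scores were 5.38 in noDOX and 5.78 in ΔTA-SOX9 (no peak in WT-SOX9, ΔHMG-SOX9, AFOS, SOX9+AFOS and SOX9+ARID1a). The summed Tfap2c score was 115.7 in noDOX, 55.6 in WT-SOX9, 135.9 in ΔHMG-SOX9, 154.0 in ΔTA-SOX9, 115.4 in AFOS, 187.5 in SOX9+AFOS and 100.1 in SOX9+ARID1a, a log2 ratio of -1.06 for WT-SOX9 over noDOX. Its peaks covered 4.7 kb with a mean score of 14.5 in noDOX and 3.8 kb with a mean of 9.26 in WT-SOX9, and over the 5 regions with a peak in both the WT-SOX9 sum was 0.501 of noDOX. This was the one window past 1.5-fold lower in that comparison, and 0 were past it higher, against 10.5% and 7.43% of 16584 genes. With 10 kb flanks the Tfap2c ratio was -0.39, short of 1.5-fold, and Grhl3 at -0.75 was the one window past it. Of its 7 noDOX regions 2 had no peak in WT-SOX9, and 3 of the other 5 were at least 1.5-fold lower, beside 27.9% and 32% over all regions. In skin the sums were 180.3 in D0, 184.2 in W1, 141.1 in W2, 134.1 in W6 and 149.5 in W12.

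Grhl3 (chr4:135541888-135573630, minus strand), needed for barrier formation, had by count the most regions without a peak at W2 and W6. It had 29 regions, with the start of Nipal3 and part of Stpg1 in its window. Peaks in the window numbered 22 in D0, 20 in W1, 14 in W2, 13 in W6 and 20 in W12, and their summed score was 266.3 in D0, 362.1 in W1, 159.0 in W2, 126.0 in W6 and 226.9 in W12. The log2 ratio to D0 was 0.44 in W1, -0.74 in W2, -1.08 in W6 and -0.23 in W12. W1 was thus above D0, W2 and W6 were below, and grafted W12 skin lay between W2 and D0. With a −log10 q-value of at least 14.5 required of all skin lists, 15 of 21 Grhl3 regions open at D0 had no peak at W2 and 14 at W6, against 7 and 10 in the lists as deposited. Over all D0 regions that requirement took the shares from 19.6% to 42.7% and from 19% to 36.4%. None of the 14 regions seen at D0 and W2 was 1.5-fold higher at W2, and 4 were 1.5-fold lower, beside 20.9% and 19% of all regions.

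At Grhl3 3 regions were lost by W2 for good. The strongest (chr4:135590544-135591564, 17.4 kb upstream) had 7.01 at D0 and 17.3 at W1 and no peak after. The others had a peak at D0 alone, 4.83 at chr4:135539985-135540480 and 3.42 at chr4:135589456-135589691. None of the 3 was open in culture.

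At 3 stronger Grhl3 regions the W2 score was lower than that of D0. A region 42.2 kb downstream of the start, in an intron of Stpg1 and with an AP1 match in its centre (chr4:135531057-135531899), scored 20.6 in D0, 37.4 in W1, 3.97 in W2 and 7.91 in W12 (no peak in W6) and was absent from all culture lists. Within the gene chr4:135563470-135564525 scored 14.6 in D0, 24.6 in W1, 4.899 in W2 and 3.84 in W6 (no peak in W12). The culture lists gave 4.54 in noDOX, 16.1 in SOX9+AFOS and 5.92 in SOX9+ARID1a (no peak in WT-SOX9, ΔHMG-SOX9, ΔTA-SOX9 and AFOS). Further into the gene chr4:135544896-135545638 scored 18 in D0, 11.4 in W1, 5.86 in W2, 7.84 in W6 and 12.4 in W12. Among the culture lists it had 4.85 in noDOX, 9.89 in SOX9+AFOS and 3.92 in SOX9+ARID1a (no peak in WT-SOX9, ΔHMG-SOX9, ΔTA-SOX9 and AFOS). In both, WT-SOX9, ΔHMG-SOX9, ΔTA-SOX9 and AFOS lacked the peak that noDOX had, while SOX9+AFOS and SOX9+ARID1a had one.

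Upstream, the region with the highest skin score of the window (chr4:135622940-135624926, centred 50.3 kb upstream) had 44.6 in D0, 77.6 in W1, 37.9 in W2, 22.7 in W6 and 27.3 in W12. In culture it was almost missing, with 3.23 in ΔHMG-SOX9, 3.02 in AFOS and no peak in the other 5 lists. Another upstream region (chr4:135597374-135598739) stayed open, with 14.4 in D0, 37.9 in W1, 16.5 in W2, 19.1 in W6 and 18.9 in W12. Culture scores were 13.6 in noDOX, 16.6 in WT-SOX9, 37.8 in ΔHMG-SOX9, 17.4 in ΔTA-SOX9, 31.8 in AFOS, 25.5 in SOX9+AFOS and 17.4 in SOX9+ARID1a. The start itself (chr4:135572588-135573785) had lower scores than these distal regions in skin, with 8.89 in D0, 13.3 in W1, 6.27 in W2, 7.06 in W6 and 8.13 in W12. Culture gave 14.3 in noDOX, 19.2 in WT-SOX9, 18.3 in ΔHMG-SOX9, 9.52 in ΔTA-SOX9, 10.3 in AFOS, 15.6 in SOX9+AFOS and 13.7 in SOX9+ARID1a. Of the 21 regions open at D0, 9 had no peak in any culture list, beside 36 of 129 over the 10 windows (27.9%, all D0 regions 30.3%). In culture the sum was 132.5 in noDOX, 105.0 in WT-SOX9, 182.7 in ΔHMG-SOX9, 146.8 in ΔTA-SOX9, 142.7 in AFOS, 136.1 in SOX9+AFOS and 107.2 in SOX9+ARID1a.

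Grhl1 (chr12:24572283-24617391, plus strand) kept most of its peaks. Its 21 regions included the start of Klf11. The Grhl1 start (chr12:24571762-24572794), with a TFAP2 match in its centre, scored 51.6 in D0, 56.9 in W1, 42.6 in W2, 46.8 in W6 and 47.9 in W12. In culture the scores were 80.5 in noDOX, 106 in WT-SOX9, 102 in ΔHMG-SOX9, 77.7 in ΔTA-SOX9, 71.2 in AFOS, 98.6 in SOX9+AFOS and 53.1 in SOX9+ARID1a. An intronic region (chr12:24591922-24593867) scored 41.6 in D0, 50.3 in W1, 55.2 in W2, 40.1 in W6 and 38.6 in W12. The culture lists gave 48.5 in noDOX, 44.4 in WT-SOX9, 51.2 in ΔHMG-SOX9, 46.8 in ΔTA-SOX9, 28.2 in AFOS, 70.7 in SOX9+AFOS and 63.3 in SOX9+ARID1a. Both were open in all 12 lists, the start with its highest scores in culture. At the Klf11 end of the window chr12:24650508-24652541 scored 54.9 in D0, 54.7 in W1, 48.8 in W2, 27.99 in W6 and 43.1 in W12. Among the culture lists it had 57.4 in noDOX, 61.8 in WT-SOX9, 58.1 in ΔHMG-SOX9, 52.6 in ΔTA-SOX9, 42.2 in AFOS, 63.8 in SOX9+AFOS and 33.02 in SOX9+ARID1a. Of 13 noDOX regions in the window 0 had no peak in WT-SOX9 or ΔHMG-SOX9, beside 27.9% and 18.4% of all noDOX regions. The one region lost by W2 (chr12:24563600-24564000) had 4.45 at D0 and 3.84 at W1. WT-SOX9 opened chr12:24630245-24630621, nearer to Klf11, with 10.2 in WT-SOX9, 4.72 in ΔHMG-SOX9, 4.88 in AFOS, 9.22 in SOX9+AFOS and 4.52 in SOX9+ARID1a (no peak in noDOX and ΔTA-SOX9). Summed over the window the scores were 338.4 in D0, 309.0 in W1, 374.0 in W2, 291.1 in W6 and 328.4 in W12, and 357.3 in noDOX, 320.9 in WT-SOX9, 389.6 in ΔHMG-SOX9, 314.4 in ΔTA-SOX9, 329.1 in AFOS, 473.0 in SOX9+AFOS and 376.9 in SOX9+ARID1a.

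Grhl2 (chr15:37233036-37363569, plus strand), a regulator of epithelial junctions, had 35 regions. Its start (chr15:37232072-37234829), with a SOX and a TFAP2 match in its centre, scored 15.1 in D0, 27.9 in W1, 19.4 in W2, 15.04 in W6 and 10.8 in W12. Culture scores were 46.1 in noDOX, 39.1 in WT-SOX9, 60.4 in ΔHMG-SOX9, 39.5 in ΔTA-SOX9, 37.8 in AFOS, 61.9 in SOX9+AFOS and 45.7 in SOX9+ARID1a. Culture values were all above the skin values. An upstream region (chr15:37192093-37193494) scored 33.8 in D0, 52.5 in W1, 35.6 in W2, 33.4 in W6 and 22.5 in W12. In culture the scores were 39.9 in noDOX, 54.04 in WT-SOX9, 52.1 in ΔHMG-SOX9, 37.2 in ΔTA-SOX9, 45.9 in AFOS, 76.8 in SOX9+AFOS and 49.5 in SOX9+ARID1a. SOX9+AFOS was the highest list at both. The intronic region chr15:37281691-37282381 scored 48.3 in D0, 50.1 in W1, 31.4 in W2, 22.3 in W6 and 30.4 in W12. The culture lists gave 27.3 in noDOX, 13.3 in WT-SOX9, 26.5 in ΔHMG-SOX9, 16.4 in ΔTA-SOX9, 32.5 in AFOS, 33.5 in SOX9+AFOS and 43.1 in SOX9+ARID1a, with W6 and WT-SOX9 the lowest of their sets.

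The Grhl2 region gained by W2 and kept (chr15:37292954-37293733) scored 7.49, 7.52 and 5.604 from W2 on, and in culture 3.79 in noDOX, 7.84 in WT-SOX9, 13.6 in SOX9+AFOS and 3.92 in SOX9+ARID1a (no peak in ΔHMG-SOX9, ΔTA-SOX9 and AFOS). The lists of mutant SOX9 and of AFOS alone thus lacked it. A region opened by WT-SOX9 (chr15:37317786-37318512), with a SOX match in its centre, had 8.56 in WT-SOX9, 19.4 in SOX9+AFOS and 7.95 in SOX9+ARID1a (no peak in noDOX, ΔHMG-SOX9, ΔTA-SOX9 and AFOS), and in skin 4.75 in W2 and 3.602 in W6 (no peak in D0, W1 and W12). It was thus seen in the 3 arms labelled as holding full-length SOX9. Just upstream of the gene chr15:37226778-37227110 had 5.69 in noDOX, 6.69 in AFOS and 9.22 in SOX9+ARID1a (no peak in WT-SOX9, ΔHMG-SOX9, ΔTA-SOX9 and SOX9+AFOS) and no skin peak, and the region lost by W2 (chr15:37189894-37190164) had a peak at D0 alone (3.31). The window sums were 205.7 in D0, 263.7 in W1, 229.6 in W2, 250.2 in W6 and 216.6 in W12, and 362.3 in noDOX, 294.9 in WT-SOX9, 344.0 in ΔHMG-SOX9, 269.1 in ΔTA-SOX9, 369.6 in AFOS, 497.6 in SOX9+AFOS and 433.7 in SOX9+ARID1a.

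Klf4 (chr4:55527143-55532466, minus strand), of the late differentiation programme, had 16 regions and no other coding gene in its window. Its main start region (chr4:55532101-55533646) scored 7.52 in D0, 10.8 in W1, 6.35 in W2, 7.05 in W6 and 5.49 in W12. Among the culture lists it had 22.9 in noDOX, 33.9 in WT-SOX9, 29.3 in ΔHMG-SOX9, 19.1 in ΔTA-SOX9, 9.63 in AFOS, 10.8 in SOX9+AFOS and 7.46 in SOX9+ARID1a. WT-SOX9 was the highest culture list there, and AFOS, SOX9+AFOS and SOX9+ARID1a the lowest. A second region over an internal start (chr4:55531067-55531839) had a peak in ΔHMG-SOX9 (6.11) and ΔTA-SOX9 (3.07) alone.

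The gained region of Klf4 (chr4:55500022-55500637, 32.1 kb downstream of the start) is the one printed above with a SOX and an AP1 match. Its scores were 24.3 in W2, 13.3 in W6 and 11.3 in W12 (no peak in D0 and W1). Culture scores were 6.002 in noDOX, 13.3 in WT-SOX9, 6.12 in ΔHMG-SOX9, 4.29 in ΔTA-SOX9, 5.78 in AFOS, 10.5 in SOX9+AFOS and 19.4 in SOX9+ARID1a, with SOX9+ARID1a and WT-SOX9 the highest of the culture lists. WT-SOX9 was 2.22 times noDOX and ΔHMG-SOX9 1.02 times. The lost Klf4 region (chr4:55482219-55482525) had 7.92 at D0, 7.01 at W1 and no peak in any later or culture list. A pair of distal regions was kept in skin, chr4:55480169-55481413 with 24.5 in D0, 29.1 in W1, 34.5 in W2, 23.5 in W6 and 24.7 in W12 and chr4:55496068-55497161 with 17.5 in D0, 30.2 in W1, 13.97 in W2, 7.85 in W6 and 11.7 in W12. In culture the first had 9.49 in noDOX, 6.25 in WT-SOX9, 6.12 in ΔHMG-SOX9, 21.5 in SOX9+AFOS and 5.07 in SOX9+ARID1a (no peak in ΔTA-SOX9 and AFOS). The second had 12.1 in noDOX, 3.59 in WT-SOX9, 5.43 in ΔHMG-SOX9, 8.94 in ΔTA-SOX9, 8.43 in AFOS, 17.8 in SOX9+AFOS and 8.56 in SOX9+ARID1a, with WT-SOX9 the lowest. Weak regions at chr4:55477974-55478382 and chr4:55488637-55489066 had noDOX scores of 4.29 and 5.08 and no peak in WT-SOX9 or ΔHMG-SOX9. Window sums came to 110.0 in D0, 116.7 in W1, 129.0 in W2, 79.5 in W6 and 94.3 in W12, and 79.8 in noDOX, 73.3 in WT-SOX9, 78.8 in ΔHMG-SOX9, 65.5 in ΔTA-SOX9, 67.0 in AFOS, 94.9 in SOX9+AFOS and 66.9 in SOX9+ARID1a.

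Klf5 (chr14:99298691-99315036, plus strand) had the highest member score of the D0, W2, W6 and W12 lists, at its start (chr14:99298225-99299432), with 90.1 in D0, 60.4 in W1, 72.9 in W2, 69.8 in W6 and 81.3 in W12. In culture the scores were 70.9 in noDOX, 77.9 in WT-SOX9, 75.1 in ΔHMG-SOX9, 54.1 in ΔTA-SOX9, 53.8 in AFOS, 71.7 in SOX9+AFOS and 43.9 in SOX9+ARID1a. Upstream by 34.6 kb a region with a SOX match in its centre (chr14:99263793-99264426) went from 22.2 and 22.9 at D0 and W1 to 3.11, 3.399 and 4.04 at W2, W6 and W12, and it had no culture peak. The W2 score was 0.14 of D0, the smallest ratio of any member region in that comparison. Past the gene chr14:99324342-99325652 was steady, with 16.7 in D0, 16.6 in W1, 17.2 in W2, 22.3 in W6 and 16.5 in W12. The culture lists gave 11.96 in noDOX, 9.98 in WT-SOX9, 7.56 in ΔHMG-SOX9, 8.77 in ΔTA-SOX9, 18.1 in AFOS, 9.37 in SOX9+AFOS and 13.2 in SOX9+ARID1a. The window held no region lost or gained by W2 for good. One of the 2 p63 matches in member regions was at chr14:99333119-99333480, with skin scores of 4.38 in W6 and 5.07 in W12 (no peak in D0, W1 and W2). Its culture scores were 5.62 in noDOX and 5.04 in SOX9+AFOS (no peak in WT-SOX9, ΔHMG-SOX9, ΔTA-SOX9, AFOS and SOX9+ARID1a). The summed score was 154.9 in D0, 149.0 in W1, 138.4 in W2, 156.6 in W6 and 152.5 in W12, and 103.0 in noDOX, 102.0 in WT-SOX9, 87.5 in ΔHMG-SOX9, 70.2 in ΔTA-SOX9, 79.0 in AFOS, 104.4 in SOX9+AFOS and 81.2 in SOX9+ARID1a.

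Ovol1 (chr19:5549136-5560646, minus strand), which encodes a repressor of the progenitor state, had 21 regions, of which 8 were nearest to its own start. The window also holds Snx32, Ap5b1, Rnaseh2c and Kat5. The Ovol1 start (chr19:5559907-5561620), the only member region with a GRHL match in its centre, scored 17.4 in D0, 29.5 in W1, 18.1 in W2, 13.7 in W6 and 18.6 in W12. Among the culture lists it had 54.4 in noDOX, 42.1 in WT-SOX9, 71.9 in ΔHMG-SOX9, 52.3 in ΔTA-SOX9, 31.3 in AFOS, 34.1 in SOX9+AFOS and 26.04 in SOX9+ARID1a. The region with the highest score of the window in each culture list but WT-SOX9 (chr19:5529284-5530146), nearest to Snx32, had 25.7 in D0, 41.7 in W1, 42.1 in W2, 30.9 in W6 and 37.6 in W12. Culture scores were 91.7 in noDOX, 65.5 in WT-SOX9, 103 in ΔHMG-SOX9, 96.8 in ΔTA-SOX9, 126 in AFOS, 124 in SOX9+AFOS and 105 in SOX9+ARID1a. That at the Ap5b1 side (chr19:5567151-5569059) had 14.5 in D0, 28.6 in W1, 16.3 in W2, 17.98 in W6 and 18.9 in W12. In culture the scores were 67.4 in noDOX, 77.3 in WT-SOX9, 97.6 in ΔHMG-SOX9, 89.8 in ΔTA-SOX9, 43.95 in AFOS, 57.6 in SOX9+AFOS and 43.4 in SOX9+ARID1a. The last 2 regions were higher in each culture list than in any skin list, while the start in SOX9+ARID1a lay below the W1 value.

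The window also held regions without a peak after SOX9. Of 12 noDOX regions in the window 6 had no peak in WT-SOX9 and 2 in ΔHMG-SOX9, beside 27.9% and 18.4% of all noDOX regions. At chr19:5539789-5540247 the scores were 6.07 in noDOX and 8.15 in SOX9+ARID1a (no peak in WT-SOX9, ΔHMG-SOX9, ΔTA-SOX9, AFOS and SOX9+AFOS), while skin kept 9.11 in D0, 5.101 in W1, 5.41 in W2, 6.405 in W6 and 6.27 in W12. A region near Snx32 (chr19:5524056-5524538) with an AP1 and a GATA match was opened, with 5.65 in WT-SOX9, 11.1 in ΔHMG-SOX9, 9.504 in ΔTA-SOX9, 17.4 in AFOS and 8.48 in SOX9+ARID1a (no peak in noDOX and SOX9+AFOS) and no skin peak. No region was lost or gained by W2 for good. Summed over the window the scores were 141.1 in D0, 182.2 in W1, 162.3 in W2, 154.5 in W6 and 206.1 in W12, and 304.0 in noDOX, 274.5 in WT-SOX9, 389.3 in ΔHMG-SOX9, 359.6 in ΔTA-SOX9, 383.9 in AFOS, 325.0 in SOX9+AFOS and 286.3 in SOX9+ARID1a. Over regions nearest to the Ovol1 start alone the log2 ratio of WT-SOX9 to noDOX was -0.88, against -0.15 over the whole window.

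Zfp750 (chr11:121510978-121519333, minus strand), a differentiation factor downstream of TRP63, lies inside Tbcd and had 18 regions. Its start (chr11:121519129-121520053) had 4.58 in W1, 7.27 in W2, 6.68 in W6 and 3.83 in W12 (no peak in D0). The culture lists gave 9.06 in noDOX, 7.21 in WT-SOX9, 7.605 in ΔHMG-SOX9, 6.09 in ΔTA-SOX9, 6.38 in AFOS, 19.7 in SOX9+AFOS and 9.45 in SOX9+ARID1a. SOX9+AFOS was the highest of the 12. The region 3.0 kb into the gene (chr11:121515804-121516940) scored 50.4 in D0, 39.1 in W1, 37.2 in W2, 24.5 in W6 and 35.2 in W12. Among the culture lists it had 73.01 in noDOX, 57.8 in WT-SOX9, 79.4 in ΔHMG-SOX9, 54.04 in ΔTA-SOX9, 58.5 in AFOS, 40.3 in SOX9+AFOS and 64.1 in SOX9+ARID1a. A region upstream of the start (chr11:121543544-121545798) scored 33.9 in D0, 42.8 in W1, 51.8 in W2, 29.8 in W6 and 38.1 in W12. Culture scores were 68.3 in noDOX, 38.7 in WT-SOX9, 73.4 in ΔHMG-SOX9, 54.5 in ΔTA-SOX9, 70.2 in AFOS, 88.2 in SOX9+AFOS and 59.2 in SOX9+ARID1a. Neither lost its peak in any list. The region gained by W2 and kept (chr11:121502032-121502722), nearer to a Tbcd start, scored 7.38, 15.3 and 9.18 from W2 on, and in culture 14.1 in noDOX, 31.1 in WT-SOX9, 6.87 in ΔHMG-SOX9, 7.03 in AFOS, 20.6 in SOX9+AFOS and 19.6 in SOX9+ARID1a (no peak in ΔTA-SOX9). WT-SOX9 was 2.2 times noDOX there. At chr11:121485493-121486256 skin had 12.1 in D0, 13.1 in W1, 16.9 in W2, 11.7 in W6 and 9.52 in W12, whereas culture had 3.46 in noDOX, 36.3 in SOX9+AFOS and 8.68 in SOX9+ARID1a (no peak in WT-SOX9, ΔHMG-SOX9, ΔTA-SOX9 and AFOS). The window sums were 143.5 in D0, 116.8 in W1, 189.5 in W2, 154.8 in W6 and 171.7 in W12, and 218.4 in noDOX, 167.5 in WT-SOX9, 224.9 in ΔHMG-SOX9, 178.1 in ΔTA-SOX9, 186.5 in AFOS, 322.2 in SOX9+AFOS and 316.2 in SOX9+ARID1a.

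In culture each arm is set against the same noDOX list, so the arms share its errors. That list comes from cells with TRE-myc-Sox9 alone. Cells with the other constructs had no list without DOX, so induction and cell line cannot be told apart in those arms. The windows held 111 noDOX regions. Of these 33 had no peak in WT-SOX9, 25 in ΔHMG-SOX9, 24 in ΔTA-SOX9, 19 in AFOS, 24 in SOX9+AFOS and 10 in SOX9+ARID1a. As shares these were 29.7% (22 to 38.8%), 22.5% (15.7 to 31.1%), 21.6% (15 to 30.2%), 17.1% (11.2 to 25.2%), 21.6% (15 to 30.2%) and 9.01% (4.97 to 15.8%), beside 27.9%, 18.4%, 19.2%, 17.3%, 34.8% and 20.5% of all noDOX regions. The share over all regions lay within the members' interval for the first 4 arms and above it for SOX9+AFOS and SOX9+ARID1a. Peaks of both these lists and of AFOS are named in the files as called from fragments, unlike those of the other 9 lists. What part that has in these shares was not tested.

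**Figure D4:**
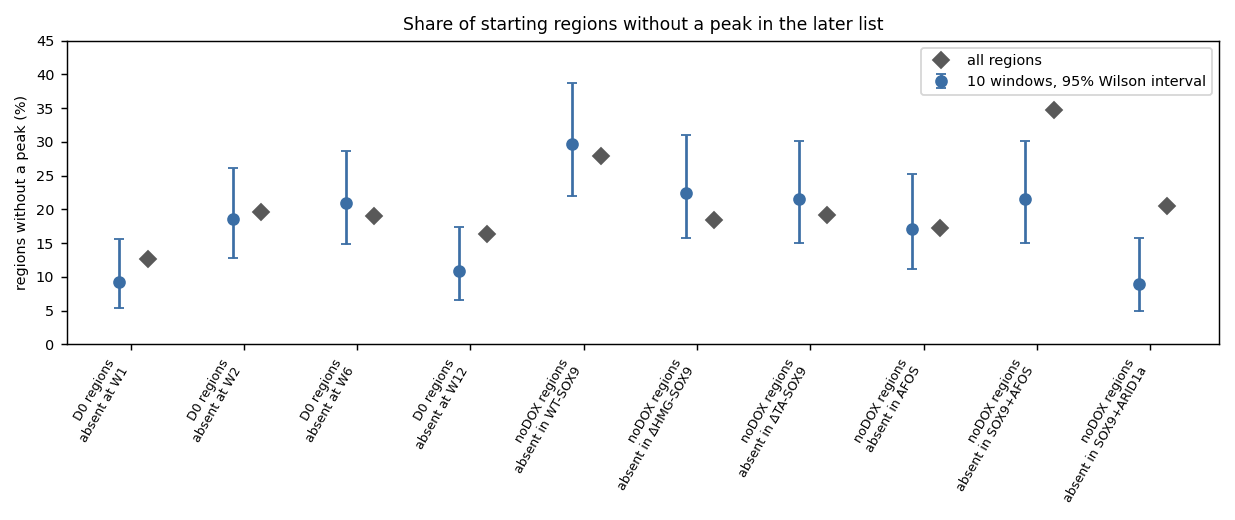
Circles give the percent (y axis) of regions of the 10 windows, open at D0 or in noDOX, without a peak in the list named on the x axis, with 95% Wilson intervals that cover counting only, and diamonds the same for all regions of the genome. Diamonds lie within the interval for 8 of the 10 comparisons and above it for SOX9+AFOS (34.8% against 21.6%) and SOX9+ARID1a (20.5% against 9.01%).

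Opening was counted over the 55 culture regions without a noDOX peak. WT-SOX9 had 16 of them, ΔHMG-SOX9 13, ΔTA-SOX9 17, AFOS 18, SOX9+AFOS 22 and SOX9+ARID1a 22 (29.1%, 23.6%, 30.9%, 32.7%, 40% and 40%). The shares over all such regions were 31.4%, 17.7%, 32.2%, 34.6%, 31.2% and 28.8%. Among regions open in noDOX and WT-SOX9, 23 of 78 were at least 1.5-fold lower in WT-SOX9 and 7 higher (29.5% and 8.97%, all regions 32% and 14.4%). For ΔHMG-SOX9 it was 14 lower and 12 higher of 86 (16.3% and 14%, all regions 17.9% and 15%).

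By their medians distal regions were lower in WT-SOX9 and start regions were not. Of 94 member regions without a coding start 33 had no WT-SOX9 peak and the others had a median log2 ratio of -0.44, whereas 0 of 17 start regions were lost and their median was 0.18. Over all regions the figures were 34.5% and -0.41 for distal and 3.84% and 0.23 for start regions. In ΔHMG-SOX9 the members gave 25 of 94 lost with a median of -0.08 for distal and 0.35 for start regions, beside 22.3% lost, -0.03 and 0.06 over all regions. SOX9+ARID1a had 9 of 94 distal members lost (9.57%, all regions 22.4%) with a median of 0.20 (all regions 0.07), and 1 of 17 start regions lost (5.88%, all regions 13.2%) with a median of -0.49 (all regions -0.74). Low start scores in that list, as at Klf4, Ovol1 and Tfap2a, were thus also seen over all start regions. In AFOS the median of start regions was -0.40 in the members and -0.36 over all regions. In SOX9+AFOS it was 0.14 and 0.04.

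Consensus letters in the central 200 bases were counted in the members and in all regions. AP1 letters were in 34 of 237 member regions (14.3%, all regions 19.4%), RUNX in 42 (17.7%, 16.5%), GATA in 26 (11%, 10.7%), KLF in 26 (11%, 9.36%), TFAP2 in 24 (10.1%, 8.93%), SOX in 11 (4.64%, 6.07%), p63 in 2 (0.844%, 0.741%) and GRHL in 1 (0.422%, 0.165%). Of the 9 regions gained by W2, 2 held SOX letters, at Trp63 and Klf4, beside 11.5% of all gained regions. Of the 9 lost, 0 held SOX letters, 2 GATA letters and 3 KLF letters, beside 2.34%, 22.9% and 8.58% of all lost regions. Of the 33 member regions without a peak in WT-SOX9, 0 held SOX letters and 6 held AP1 letters (18.2%), beside 5 (6.41%) and 10 (12.8%) of the 78 that kept one. Among the 16 opened, 1 held SOX letters (6.25%, all regions of any class 6.07%). A match shows letters in the window and nothing of binding.

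Other loci were set beside these by the same counts. Of D0 regions near 15 further epidermal regulators 23 of 165 (13.9%) had no peak at W2, near 10 hair follicle stem cell regulators 28 of 132 (21.2%), and near 10 epidermal structural genes 20 of 104 (19.2%). Regions gained by W2 and kept were 21 of 101 (20.8%), 23 of 103 (22.3%) and 17 of 74 (23%), against 9 of 65 at the members. WT-SOX9 closed 41 of 152 (27%), 17 of 94 (18.1%) and 29 of 112 (25.9%) of their noDOX regions and opened 11 of 76 (14.5%), 29 of 91 (31.9%) and 29 of 73 (39.7%). The members, at 33 of 111 closed and 16 of 55 opened (29.1%), were not tested against these lists.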

How the data were processed

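ATAC-seq of 24 samples in 12 groups, 2 replicates each, was analysed from the 12 peak lists the authors deposited. Reads had been processed with PEPATAC on GRCm38, the BAM files of both replicates merged, and peaks called with MACS2 and kept from a normalised score of 3, which is the lowest value in each list. Bowtie2 2.2.9, MACS2 2.1.1, Picard 2.3.0, SAMtools 1.9 and deepTools 2.5.4 are named in the submitters' processing notes. The deposited score is the main measure, and that its near-equal sum per list reflects scaling is an inference from the values. The fold enrichment and the −log10 q-value the authors deposited with each skin peak came from MACS2. The fold enrichment was not used for any result. Read depth is not given in the sources used here, and intervals cover counting only.

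Peaks of all 12 lists were merged into regions when they overlapped by 1 bp or more (Python 3.11.15, numpy 2.4.6, scipy 1.17.1), and a region took the highest score per list. Members were regions overlapping a gene body and its 50 kb flanks, from the protein-coding genes of the GRCm38 annotation. Being lost or closed means a peak in the first list and none in the second. Being gained or opened means the reverse. Chromosome ends of the regions were checked against the reference lengths. The motif scan was tested on simulated sequences. With 1 list per group no test was possible and none was run. Named regions were those over a coding start, the 3 with the highest skin score per window, all lost or gained by W2 and kept so, the 10 with the highest noDOX score without a peak in either WT-SOX9 or ΔHMG-SOX9 (both set against the same noDOX list), and the 5 with the highest WT-SOX9 score among those opened. The members, the gene lists for comparison and this rule were chosen with earlier results of these data known. Alternatives were a score of at least 5, lists cut to 49458 peaks each, flanks of 10 kb or 100 kb, separate unions for skin and culture, an overlap of 100 bp, only regions nearest to a member's start, a common −log10 q-value, the gained class without W1, scores rescaled on shared regions, and motif scans of whole regions.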

Additional observations from a re-analysis of the deposited data

Results flagged for a closer look

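At 2 regions the score was at least 1.5-fold higher than D0 at W2, W6 and W12 and at least 1.5-fold lower in WT-SOX9 than in noDOX, and the difference was not tested, since each group is 1 list. In the Grhl1 window chr12:24524816-24525713, nearest to the start of Taf1b, scored 5.01 at D0 and 15.6 at W2, a log2 ratio of 1.64, against 27.7 in noDOX and 11.4 in WT-SOX9. In the Grhl2 window chr15:37304958-37306033 scored 5.27 at D0 and 15.6 at W2, a log2 ratio of 1.56, against 13.2 in noDOX and 6.44 in WT-SOX9. In both, noDOX was higher than D0 and W2 was higher than WT-SOX9. One more region, in the Zfp750 window (chr11:121478809-121480319), was 1.7 times D0 at W2 and 1.84 times at W6 but 1.44 times at W12, with 0.456 of noDOX in WT-SOX9.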

How the results depend on the processing

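No paired analysis was possible because each group was deposited as 1 list merged from both replicates, and for the same reason no replicate could be left out. Window sums were recomputed for W2 over D0 and WT-SOX9 over noDOX. Of these, the 2 past 1.5-fold (Grhl3 and Tfap2c) kept their sign, but 4 log2 ratios short of it did not: WT-SOX9 over noDOX at Klf4 (-0.12, then 0.42 with 10 kb flanks), Ovol1 (-0.15, then 0.16 with 100 kb flanks) and Klf5 (-0.01, then 0.10 with rescaled scores), and W2 over D0 at Ovol1 (0.20, then -0.08 with 10 kb flanks). Of D0 regions, the share absent at W1 was 9.3% and became 4.29% with 10 kb flanks and 16.3% with a common −log10 q-value of 14.5. At W2 it was 18.6% and became 27.2% with lists cut to 49458 peaks and 43.4% with the common q-value. At W6 it was 20.9%, then 32.5% and 37.2%. At W12 it was 10.9%, then 23.7% and 22.5%, and 20.2% with a score of at least 5. Over all D0 regions the shorter lists gave 23.5% at W2, 28% at W6 and 24% at W12. Regions lost by W2 and not regained were 9, and 21 with shorter lists, 26 with the common q-value, 5 with 10 kb and 18 with 100 kb flanks. Regions gained by W2 and kept were 9, then 2 with the common q-value and 17 with 100 kb flanks. The share of noDOX regions closed by ΔHMG-SOX9 was 13.5% in place of 22.5% with a score of at least 5, and that by SOX9+ARID1a 4.84% in place of 9.01% with 10 kb flanks. Regions opened by WT-SOX9 were 16, then 10 with a score of at least 5 and 7 with 10 kb flanks. These lost, gained, closed and opened figures stand without the share over all regions under the same setting. Their shifts are therefore no result about the members. Windows higher at W2 than D0 by 1.5-fold were 0, then 1 with a score of at least 5 and 2 with 100 kb flanks. Windows lower in WT-SOX9 were 1, and 2 with 100 kb flanks (Trp63, -0.75 in place of -0.31, was added) or with only regions nearest to a member's start (Ovol1, -0.88 in place of -0.15, was added). With 10 kb flanks the count was again 1, but the window was Grhl3 (-0.75 in place of -0.34) and not Tfap2c (-0.39 in place of -1.06). Whole-region scans, which are longer, took the members' shares with SOX letters to 14.8%, AP1 to 27.8%, GATA to 24.5%, RUNX to 36.3%, TFAP2 to 26.6% and KLF to 30%. The cause of the other shifts was not tested beyond what each alternative changes by construction. Depth and background per list are unknown, so that a missing peak limits each count.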
